A study of Homo sapiens with 4 samples.

Results

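The carbonic anhydrase genes were examined in the RNA-Seq libraries of HEK293T cells with and without HELZ. The group comprised CA2, CA3, CA4, CA5B, CA8, CA9, CA11, CA12, CA13 and CA14, 10 of the 27011 genes in the count table. They were chosen by family membership and by the values of CA2, whose mRNA was abundant and much lower in the edited line. Its level and its difference between the lines are therefore given as a description, without a test. The libraries came from 2 biological replicates of wild-type (WT) cells and 2 of Helz-null cells. The parent, HEK293T, is a human cell line of embryonic kidney origin. The Helz-null line was made from it by CRISPR-Cas9 editing that shifted the reading frame of the helz gene, and no treatment is given for either line. A single edited line was compared with its parent, so an effect of HELZ and a difference that arose while the line was derived cannot be told apart.

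Carbonic anhydrases are zinc enzymes that interconvert carbon dioxide and water with bicarbonate and protons. Family members differ in where they act: CA2, CA3 and CA13 in the cytosol, CA5B in mitochondria, and CA4, CA9, CA12 and CA14 at the cell surface. CA8 and CA11 belong to the carbonic anhydrase-related proteins, which keep the fold but lack catalytic activity. In kidney, CA2 supplies protons and bicarbonate for acid secretion and bicarbonate reabsorption, and CA9 is a classic target of hypoxia-inducible transcription factors.

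Between 41745401 and 70464140 counts were available per library, and the floor of 3 counts per library corresponded to between 0.0421 and 0.0716 CPM (counts scaled to library size). HELZ itself served as the check of the labels. It had 97.6 and 102 CPM in WT against 36.2 and 37.1 CPM in Helz-null cells, a log2 fold change (log2FC) of -1.44 with an adjusted p of 2.13e-27. Among 9 genes of embryonic kidney and neuronal character listed as a check of the cell line, none was at 0 counts throughout, and their summed level was 1460 and 1450 CPM in WT against 1560 and 1540 CPM in Helz-null cells. NEFM (log2FC 0.89) and LHX1 (0.98) of this list were called up, EYA1 (-0.55) and VIM (-0.14) down. The sum was mostly VIM, and the kidney factor PAX8 was close to 0 in both lines, at 0.0234 CPM in WT against 0.0754 CPM in Helz-null cells.

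Levels between genes were compared as FPKM, which divide the counts by gene width and library size. CA2 mRNA far exceeded that of every other member. Its FPKM were 364 and 368 in WT against 172 and 179 in Helz-null cells. CA2 thus ranked 149th of 27011 genes in WT and 333rd in Helz-null cells by mean FPKM. It made up 95.6% and 95.7% of the summed FPKM of the family in WT, and 92.6% and 92.9% in Helz-null cells. The related proteins came next, with CA8 at 8.85 ± 0.36 FPKM and CA11 at 2.57 ± 0.087 FPKM in WT (SD, n = 2). The cell surface enzyme CA12 followed at 2.10 ± 0.204 FPKM and the mitochondrial CA5B at 1.28 ± 0.0603 FPKM. CA13 had 1.08 ± 0.055 FPKM, CA14 0.43 ± 0.00332 FPKM and CA3 0.156 ± 0.0691 FPKM in WT (SD, n = 2). CA9 had 2 counts in WT replicate 1, 2 counts in Helz-null replicate 2 and 0 in the other libraries. CA4 had 0 counts in all 4 libraries, which allows up to 3 counts in each. The order of the members was the same in Helz-null cells. In both lines the ranges of neighbours in this order did not overlap, except for CA9 and CA4, which could not be separated.

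**Figure D1:**
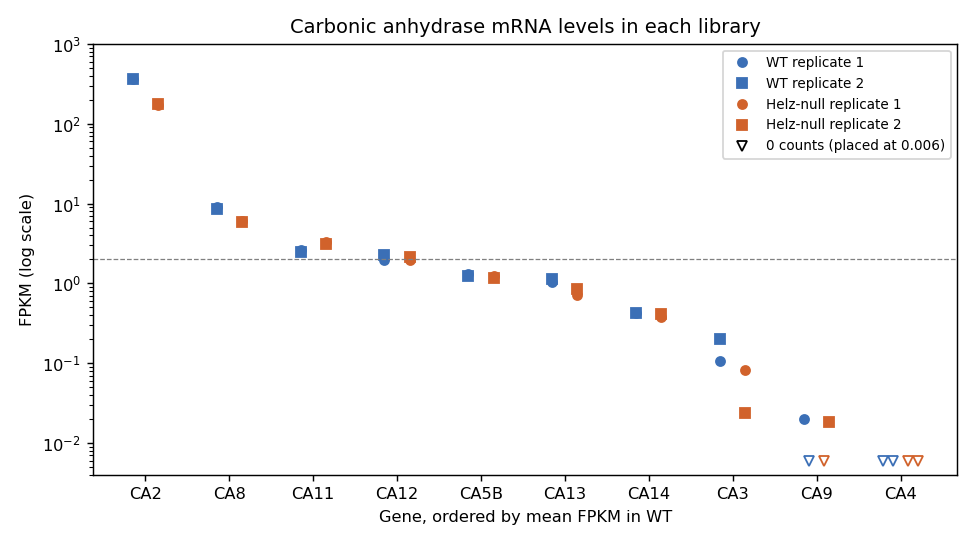
FPKM (log scale) of the 10 carbonic anhydrase genes in each of the 4 libraries, with genes ordered by mean FPKM in WT. Filled circles and squares are replicates 1 and 2, open triangles mark 0 counts and are placed at an arbitrary height, and the dashed line is an FPKM of 2. CA2 lies at 364 and 368 in WT and at 172 and 179 in Helz-null cells, and CA8 is the next most abundant member in both lines.

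The other carbonic anhydrase genes in the count table contributed little. CA1, CA6 and CA10 had 0 counts in all 4 libraries, and CA5A had 2 counts in 1 Helz-null library. CA7, a cytosolic enzyme best known from brain, had between 6 and 20 counts per library (log2FC 0.12, standard error 0.55, adjusted p = 0.90, second fit). CA5BP1, a pseudogene next to CA5B, had 15.5 ± 0.459 FPKM in WT and 14.7 ± 1.84 FPKM in Helz-null cells (SD, n = 2; log2FC -0.085, adjusted p = 0.43). CA5BP1 shares 29 exon bases with CA5B on the same strand and is similar to it in sequence, so the division of reads between the pair is uncertain.

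The comparison of Helz-null with WT cells asked how mRNA levels change in the absence of HELZ. A first fit covered the 10978 genes that the study selected for testing, and held CA2, CA8, CA11 and CA12. A second fit covered the 16087 genes that passed a filter on low counts, and added CA5B, CA13 and CA14. CA3, CA4 and CA9 passed neither and are given as counts. Genes were called at a false discovery rate (FDR) under 0.005, the threshold of the study. CA2 was chosen for its lower level and is not counted here. Of the other 3 members in the first fit, 1 was called down, CA8, and none was called up. Over all genes of that fit 15.5% were called down and 13.9% up. At an unadjusted p under 0.05 edgeR counted 1 member up, CA11, and DESeq2 called 0 up at the same FDR. Of all calls in the first fit 47.3% were upward, and 61.5% when libraries were scaled by total count only. None of the 3 members of the second fit was called by edgeR or by DESeq2, 1 of them, CA13, had an unadjusted p under 0.05, and 21.4% of the genes of that fit were called, 11.5% down and 9.83% up.

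**Figure D2:**
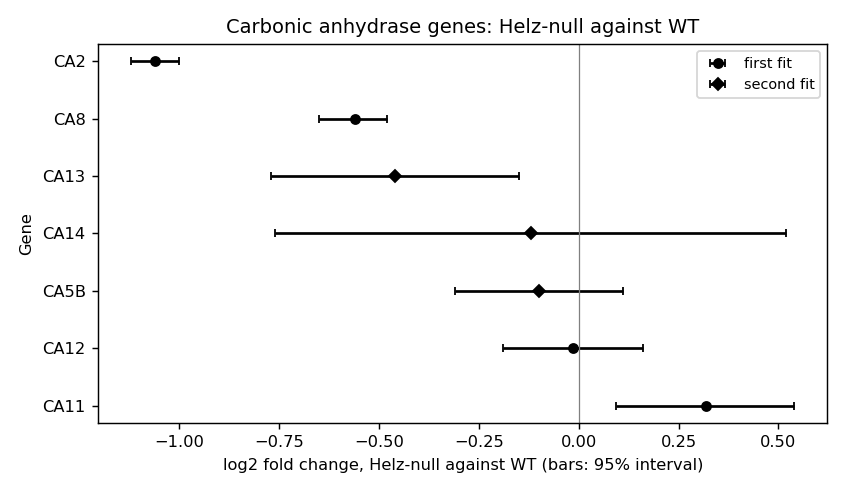
Log2 fold change of Helz-null against WT for the 7 of the 10 listed carbonic anhydrase genes that entered a fit, with 95% intervals as bars. Circles are genes of the first fit (10978 genes) and diamonds genes of the second (16087 genes). The intervals of CA12, CA5B and CA14 include 0, those of CA8 and CA13 lie below 0 and that of CA11 lies above 0. CA2 was chosen for its lower level, so its interval is drawn as a description and not read against 0.

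Among the cytosolic enzymes, CA2 had 607 and 612 CPM in WT against 286 and 298 CPM in Helz-null cells. Both Helz-null libraries lay below both WT libraries, as for 35.7% of the genes of the first fit, at 47.9% of the WT mean. In bulk RNA, fewer cells with a transcript and less of it per cell cannot be told apart. The log2FC was -1.06 with a standard error of 0.029. The summed FPKM of all 10 members was 382 ± 2.07 in WT and 189 ± 5.20 in Helz-null cells (SD, n = 2), a difference set almost wholly by CA2.

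CA13, a cytosolic enzyme encoded beside CA2, had 4.02 and 4.32 CPM in WT against 2.72 and 3.24 CPM in Helz-null cells. The groups did not overlap, as for 65% of the genes of the second fit in either direction and for 32.5% in the direction of CA13. The log2FC of -0.46 (standard error 0.15, 95% interval from -0.77 to -0.15) did not pass the threshold (adjusted p = 0.017). Over the alternatives its adjusted p ranged from 0.00638 to 0.157.

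CA3, an enzyme typical of skeletal muscle, was near the limit of detection, with 12 and 15 counts in WT and 6 and 3 counts in Helz-null cells. Relative to library size, the summed CA3 counts of the Helz-null libraries were 0.312 of those in WT, with an exact 95% interval from 0.129 to 0.683 for counting error only. Both mates of a read pair appear to have been counted, since genes with 2 counts outnumbered genes with 1 count in each library, so this interval is too narrow.

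CA8, a related protein known from cerebellar Purkinje cells, where it binds an inositol trisphosphate receptor, was called down. It had 77.6 and 73.3 CPM in WT against 52.2 and 50.2 CPM in Helz-null cells. The Helz-null libraries lay below both WT libraries, as for 35.7% of the genes of the first fit, at 67.9% of the WT mean. Its log2FC was -0.56 (standard error 0.043, adjusted p = 5.17e-14), and 176 of the 10978 genes including CA8 were lower by at least as much. With single libraries left out, its log2FC lay between -0.60 and -0.52.

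CA11, the other related protein and found mainly in brain, had higher values in Helz-null cells. It stood at 6.56 and 6.25 CPM in WT against 8.29 and 7.79 CPM in Helz-null cells. The groups did not overlap, as for 70.6% of the genes of the first fit. The log2FC of 0.32 (standard error 0.11, 95% interval from 0.094 to 0.54) did not pass the threshold (adjusted p = 0.018), and the adjusted p stayed between 0.00829 and 0.111 over the alternatives. CA11 shares 74 exon bases with SEC1P on the opposite strand, so reads of that stretch could belong to either gene.

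None of the cell surface enzymes passed the test. CA12 had 12.6 and 14.5 CPM in WT against 12.5 and 14.0 CPM in Helz-null cells. Replicate 2 was higher than replicate 1 in both lines, and the difference within each line exceeded that between them. Its log2FC was -0.014 (standard error 0.086, 95% interval from -0.19 to 0.16, adjusted p = 0.91), and its sign changed with the processing. CA14 had 0.779 and 0.787 CPM in WT against 0.687 and 0.744 CPM in Helz-null cells. The groups did not overlap, as for 65% of the genes of the second fit in either direction and for 32.5% in the direction of CA14. The CA14 values rest on 29 to 53 counts per library. The 95% interval of the log2FC, from -0.76 to 0.52, also covers changes as large as that of CA8 (log2FC -0.12, adjusted p = 0.80). CA9, with at most 2 counts in a library, and CA4 allowed no comparison. Of the exon bases of CA9, 35.7% are shared with ARHGEF39 on the opposite strand.

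The mitochondrial CA5B had 8.01 and 7.49 CPM in WT against 7.55 and 7.04 CPM in Helz-null cells. The groups overlapped, and the log2FC was -0.10 (standard error 0.10, 95% interval from -0.31 to 0.11, adjusted p = 0.50). The gene shares 22% of its exon bases with INE2 on the opposite strand.

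CA13, CA1, CA3 and CA2 form a cluster on chromosome 8, and CA8 lies on the same chromosome but outside the cluster. On GRCh37, the build the study mapped to as hg19, CA2 extends from 86376197 to 86393722 on the plus strand. CA13 runs from 86132816 to 86196302 and CA3 from 86285665 to 86361269, both on the plus strand, and CA8 from 61097971 to 61193959 on the minus strand. CA3-AS1, an antisense RNA gene, lies between 86352825 and 86377144 on the minus strand. It shares 252 exon bases with CA3, and its span overlaps the start of CA2, with no shared exon base found. The other members lie elsewhere: CA14 on chromosome 1 (150229646 to 150237478, plus strand), CA9 on chromosome 9 (35673925 to 35681156, plus strand) and CA12 on chromosome 15 (63613577 to 63674045, minus strand). CA4 lies on chromosome 17 (58227303 to 58248260, plus strand), CA11 on chromosome 19 (49141203 to 49149444, minus strand) and CA5B on chromosome X (15706953 to 15806534, plus strand).

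The antisense gene had lower values in both Helz-null libraries. CA3-AS1 had 0.919 and 0.740 CPM in WT against 0.284 and 0.477 CPM in Helz-null cells. Like 65% of the genes of the second fit, and 32.5% in the same direction, CA3-AS1 had no overlap between the groups. Its log2FC was -1.07 (standard error 0.36) and did not pass the threshold (adjusted p = 0.019; range over the alternatives 0.0118 to 0.155). Since the use of strand in the counting was not stated, reads of CA3 and CA3-AS1 in their shared bases cannot be told apart.

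The next gene with counts beyond CA2 encodes ATP6V0D2, a subunit of the vacuolar proton pump of kidney and bone cells, which starts 0.62 Mb away. It had 105 and 62 counts in WT and 2 and 10 counts in Helz-null cells. In CPM the values were 1.64 and 1.48 against 0.0473 and 0.140, a log2FC of -3.87 (standard error 0.41, adjusted p = 2.67e-09 in the second fit). The log2FC was -4.98 without Helz-null replicate 2 and -3.46 without Helz-null replicate 1. PSKH2, a kinase gene within the span of ATP6V0D2 on the opposite strand, had 23 and 24 counts in WT and 7 and 6 in Helz-null cells. Its log2FC of -1.94 (standard error 0.55) just missed the threshold (adjusted p = 0.0054), and it passed with a replicate block (0.0028), without WT replicate 1 (0.0029) and without Helz-null replicate 1 (0.0043). Over all alternatives its adjusted p reached 0.12. ATP6V0D2 and PSKH2 were singled out here after their values were seen.

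Genes farther out showed both directions. On the other side of the cluster, C8orf59 had a log2FC of 0.034, E2F5 one of 0.13 and LRRCC1 one of 0.38, of which LRRCC1 was called up (adjusted p = 0.00036). Beyond PSKH2, WWP1 had a log2FC of -0.12 and was not called, and RMDN1 was called up with 0.18 (adjusted p = 0.0024). Within 1 Mb of CA2 the table held 12 other genes, 3 of them at 0 counts, and of the 8 that were fitted 5 were below 0, 1 was called down and 1 up, with a median log2FC of -0.29. The 5 nearest genes of the first fit on each side of CA2, which leave out CA13, CA3-AS1, ATP6V0D2 and PSKH2, had a median log2FC of 0.080, and 3 of the 10 were below 0. With 10 genes on each side the median turned to -0.10, with 12 of 20 below 0, 5 called down and 3 up. Of the 10 nearest genes around CA8, 2 were called down and their median log2FC was -0.054. For the other members the median over the 10 nearest genes lay between -0.031 and 0.080. For CA3 and CA13, in the same cluster, the median was 0.080 and CA2 itself was among the 10 genes.

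**Figure D3:**
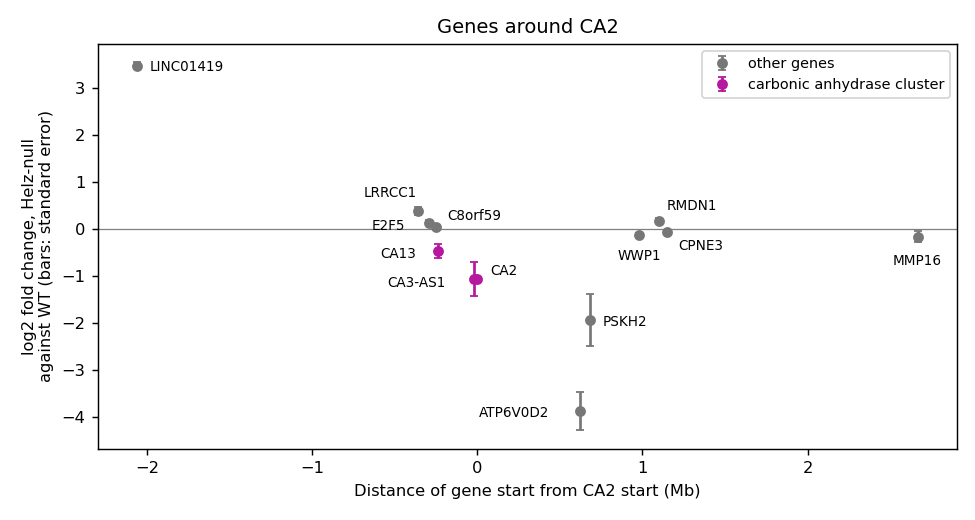
Log2 fold change of Helz-null against WT for the fitted genes that start within 3 Mb of the start of CA2 on chromosome 8, plotted against the distance in Mb, with standard errors as bars. The carbonic anhydrase cluster (CA13, CA3-AS1, CA2), ATP6V0D2 and PSKH2 lie below 0, at -0.46, -1.07, -1.06, -3.87 and -1.94, while LRRCC1, E2F5 and C8orf59 on 1 side and WWP1, RMDN1 and CPNE3 on the other lie near or above 0. LINC01419, 2.06 Mb away, lies at 3.47.

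Markers of other cell types known for carbonic anhydrases were low, except TNFRSF11A. Of 8 erythroid markers, 5 had 0 counts in all libraries, among them HBB and CA1, and the list summed to 0.218 and 0.167 CPM in WT but to 0.497 and 0.421 CPM in Helz-null cells. Skeletal muscle markers summed to 0.981 and 1.00 CPM in WT but to 0.568 and 0.575 CPM in Helz-null cells, with MYH1 at 0 counts. Markers of kidney intercalated cells, which use CA2 for acid secretion, summed to 2.90 and 3.27 CPM in WT but to 1.49 and 1.22 CPM in Helz-null cells. The defining factor FOXI1 was near 0, and ATP6V0D2 carried most of this difference. Osteoclast markers summed to 14.2 and 15.9 CPM in WT but to 18.4 and 19.5 CPM in Helz-null cells. Nearly all of this was the receptor gene TNFRSF11A, which had 14.0 ± 1.31 CPM in WT against 18.2 ± 0.676 CPM in Helz-null (SD, n = 2) and was called up (log2FC 0.39, adjusted p = 8.15e-05), and the defining marker DCSTAMP was at 0 counts. The part of these lists in the values of the carbonic anhydrase genes was not tested.

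By their pattern over the 4 libraries, the genes most like CA2 among 10714 candidates with a mean FPKM above 2 were INA, KRT8, HOXB5, ZCCHC12 and GPR50. Likeness was measured as the root mean square distance of centred log2 CPM, which was between 0.050 and 0.070. INA, a neuronal intermediate filament gene, had 69.9 ± 4.13 CPM in WT against 33.6 ± 1.81 CPM in Helz-null cells (SD, n = 2), a log2FC of -1.05. KRT8, an epithelial keratin gene, had 28.1 ± 1.77 CPM in WT against 14.1 ± 0.658 CPM in Helz-null (SD, n = 2). None of the 5 lies on chromosome 8.

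The bicarbonate and protons that carbonic anhydrases handle cross membranes through dedicated carriers. Of 21 bicarbonate transporter genes of the SLC4 and SLC26 families, 8 entered the first fit, 1 was called up and 1 down, beside 13.9% up and 15.5% down over all genes of the fit, and their median log2FC was -0.043 against -0.00091 over all genes tested. SLC4A2, a chloride-bicarbonate exchanger, rose from 159 ± 3.39 to 206 ± 3.67 CPM (SD, n = 2; log2FC 0.37, adjusted p = 6.44e-13). The 10 genes nearest to it on chromosome 7 had a median log2FC of 0.28, and 8 of them were called up. SLC4A5, a sodium-bicarbonate cotransporter, fell from 20.1 ± 0.253 to 15.6 ± 0.883 CPM (SD, n = 2; log2FC -0.37, adjusted p = 6.29e-05). It was not called without Helz-null replicate 2. The sodium-bicarbonate cotransporter SLC4A7 missed the threshold (log2FC -0.16, adjusted p = 0.0062). Both SLC4A1, the exchanger of red cells and intercalated cells, and SLC26A4 were too low for the first fit.

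Of 16 genes for proton and lactate exporters, 8 entered the first fit, 2 were called down and none up, beside the same shares over all genes (15.5% down, 13.9% up), with a median log2FC of -0.065. At an unadjusted p under 0.05 edgeR also counted 0 up, and DESeq2 called 0 up. Of those called down, SLC9A7, a sodium-proton exchanger of the Golgi, fell from 27.8 ± 0.172 to 22.3 ± 0.129 CPM (SD, n = 2; log2FC -0.32, adjusted p = 4.49e-05). The lactate carrier SLC16A1 (log2FC -0.011, adjusted p = 0.80) and its chaperone BSG (log2FC 0.052, adjusted p = 0.13) were not called. SLC16A7, a further lactate carrier named after its value was seen, was low and fell from 2.29 ± 0.268 to 0.244 ± 0.111 CPM (SD, n = 2; log2FC -3.11, adjusted p = 7.26e-10, second fit).

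Genes of the vacuolar proton pump were called up more often than down, unlike ATP6V0D2. Of 24 subunit and accessory genes 19 entered the first fit, 8 were called up and 1 down, beside 13.9% up and 15.5% down over all genes of the fit. Their median log2FC was 0.091. With library size only, 11 of these genes were called up. ATP6V1C1 rose from 112 ± 0.156 to 138 ± 1.42 CPM (SD, n = 2; log2FC 0.29, adjusted p = 1.41e-09). ATP6V1H had a log2FC of 0.28 (adjusted p = 7.62e-06) and ATP6V0D1, the broadly expressed counterpart of ATP6V0D2, one of 0.22 (adjusted p = 3.03e-06). ATP6V0D1 had 87.2 ± 0.616 CPM in WT against 102 ± 1.5 CPM in Helz-null (SD, n = 2). ATP6V1F was the gene called down (log2FC -0.15, adjusted p = 0.00051), and it was not called with library size only or without Helz-null replicate 1. The number called up ranged from 5 to 8 with single libraries left out and was lowest without Helz-null replicate 2.

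Of 10 bicarbonate-using carboxylase and related genes, 9 entered the first fit, with 1 called up and none down, beside 13.9% and 15.5% over all genes, and a median log2FC of 0.047. At an unadjusted p under 0.05 edgeR counted 1 down, PCCB, and DESeq2 called 0 down. CPS1, which makes carbamoyl phosphate from bicarbonate and ammonia in mitochondria, rose from 62.0 ± 2.55 to 85.8 ± 1.98 CPM (SD, n = 2; log2FC 0.47, adjusted p = 9.28e-13).

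CA9 and CA12 respond to hypoxia in many cells, so genes of the hypoxia response were listed too. Of 38 such genes counted, 37 entered the first fit, 6 were called up and 10 down, beside 13.9% up and 15.5% down over all genes of the fit, with a median log2FC of -0.0081. The peptide hormone gene ADM fell most, from 13.2 ± 0.134 to 8.16 ± 0.589 CPM (SD, n = 2; log2FC -0.68, adjusted p = 9.66e-08). VHL (log2FC -0.42, adjusted p = 4.30e-14) and EGLN1 (log2FC -0.35, adjusted p = 7.42e-11), which direct the degradation of hypoxia-inducible factors, were also called down. The 10 genes nearest to VHL on chromosome 3 had a median log2FC of -0.19 with 5 called down. The 10 nearest to EGLN1 on chromosome 1 had a median of -0.44 with all 10 called down. Around ADM, BNIP3L, CPS1, SLC4A5, SLC9A7, SLC16A7 and ATP6V0D2, the corresponding median lay between -0.07 and 0.092. VEGFA was called down (log2FC -0.27, adjusted p = 0.00010). BNIP3L (log2FC 0.40), MXI1 (0.29) and EPAS1 (0.26), which encodes a hypoxia-inducible factor, were called up. HIF1A mRNA stood at 108 ± 1.12 CPM in WT against 108 ± 1.23 CPM in Helz-null (SD, n = 2), and the glucose transporter gene SLC2A1 at 50.9 CPM in both, and neither was called.

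**Figure D4:**
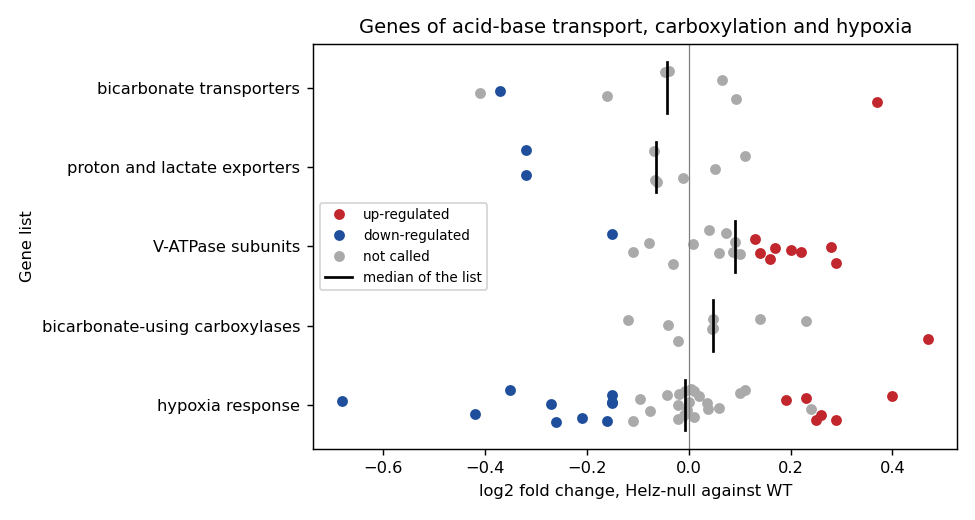
Log2 fold change of Helz-null against WT for the genes of 5 lists that entered the first fit, 1 point per gene, with vertical position within a list spread at random for legibility. Red and blue points were called up or down at an FDR under 0.005, grey points were not called, and black bars are list medians. The V-ATPase subunits have 8 points called up and 1 called down around a median of 0.091, and the hypoxia list has calls on both sides of 0.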

How the data were processed

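The data were 4 RNA-Seq libraries of HEK293T cells, 2 WT and 2 Helz-null. To make them, the authors discarded ribosomal reads (Bowtie2), aligned the remaining pairs to hg19 (TopHat2) and summarised them by gene (QuasR), and the deposited counts are not normalized. Versions, gene annotation and use of strand are not given in the sources used here. Both mates of a pair appear to have been counted: between 748 and 807 genes per library had 2 counts, against 623 to 647 with 1 count. The gene width of the deposited count table was used for FPKM. A second deposited table holds the edgeR comparison of the authors (log2 fold change, log2 abundance, p-value and FDR) for 10978 genes with an FPKM above 2, the study's cutoff. Only its gene names were used, to select genes for the first fit.

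Counts were tested in R 4.3.3 with edgeR 4.0.16 (TMM scaling, estimateDisp, glmQLFit, glmQLFTest, genotype as the only term) on these 10978 genes and, for members outside them, on the 16087 genes that passed filterByExpr. P-values were adjusted by the Benjamini-Hochberg method over all genes of a fit. Standard errors were derived from the F statistic, and 95% intervals from the standard error and its degrees of freedom. CPM and FPKM (fragments per kilobase of gene width) used library totals multiplied by the TMM factors. Intervals of raw counts cover counting error only and, with both mates counted, are too narrow. Gene positions came from the GENCODE annotation on GRCh37, in which 10379 tested genes matched by symbol, 522 by a synonym and 77 not. Replicates differed by more than sampling noise (chi-square per degree of freedom 4.15 in WT and 3.01 in Helz-null). The study's methods call the replicates biological while the labels only number them, and p-values measure the spread between these libraries only. On simulated counts with 200 genes changed 1 unit on the log2 scale, the first fit (10978 genes) called 200 of them and 1 unchanged gene, and the second (16087 genes) 182 and 0. The simulation gave all genes of a fit the same dispersion and changed no gene with very low counts. It can therefore overstate how well genes with low counts or a larger spread are called.

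The members and gene lists were chosen with earlier results of these data known. The named genes were the members, HELZ, other carbonic anhydrase genes, up to 3 called genes per direction in each list with the largest changes, SLC4A7, SLC16A1, BSG, VEGFA, SLC2A1 and HIF1A, the 5 genes nearest in pattern to CA2, and its tested neighbours. Alternatives were DESeq2 1.42.0, other scalings and filters, halved counts, a replicate block and single libraries left out. Protein sequences were not analysed here, and some genes of the lists are not reported here by name.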

Additional observations from a re-analysis of the deposited data

How the results depend on the processing

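CA8 stayed below 0 and called in all 12 alternatives, and CA2, chosen for its lower level, had a log2FC between -1.1 and -1.0 in them. CA11, CA13, CA5B and CA14 kept their direction and stayed uncalled in all that gave a value. Only CA12 changed sign among the members, with log2FC values of 0.019 under scaling by library size only, 0.00090 with counts divided by 2, and -0.12 to 0.082 with single libraries left out. Replicate numbers did not pair the libraries (correlation of deviations 0.034). With a replicate block 1677 genes were called up and 1841 down in place of 1524 and 1701, and the members called were as many; of the lists, bicarbonate transporters then had 2 genes down and carboxylases 1 down. List counts rest on few genes. With library size only, carboxylases had 2 genes up and V-ATPase subunits 11 up and 0 down. With filterByExpr and with no filter V-ATPase subunits had 2 down, and with no filter proton and lactate exporters had 1 up. With single libraries left out, genes called ranged from 5 to 8 up and from 0 (without Helz-null replicate 1) to 2 down (without WT replicate 2) for V-ATPase subunits, and from 0 (without Helz-null replicate 2) to 2 down (without WT replicate 1) for bicarbonate transporters. They ranged from 1 to 2 up (without WT replicate 1) and 0 to 1 down (without WT replicate 2) for carboxylases, and from 0 to 1 up (without WT replicate 2) for proton and lactate exporters. The cause was not tested. Depth limits CA3, CA4 and CA9, whose counts reached at most 15 in a library, and CA14, whose interval spans changes in both directions.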
